A study of Homo sapiens with 15 samples.

Results

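The 52 genes described here are MYC, its partners and antagonists, and genes for making and using ribosomes, each taken by its listed symbol from the deposited tables. All 52 were found among the 16768 gene symbols of the vehicle and saracatinib libraries and among the 16295 of the untreated libraries, 15703 of which are in both. They fall into 4 roles: 6 genes of the MYC family and its target ODC1, 7 genes of RNA polymerase I, 34 genes of nucleolar ribosome processing and 5 genes of translation initiation. All 52 passed the filter on low values in both experiments.

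RNA was sequenced from A375 cells, a BRAF-mutant human melanoma line in long-standing use, in 15 libraries that form 5 groups of 3. The first experiment holds VAV1-overexpressing cells with saracatinib, an inhibitor of SRC family kinases, VAV1-overexpressing cells with vehicle, and empty-vector cells with vehicle. The second holds untreated cells with RAC1 P29S, an activated form of the GTPase RAC1 seen in melanoma, and untreated empty-vector cells. VAV1 is an exchange factor for RAC1 and related GTPases, normally made in blood cells. All groups share the A375 background and the same medium with serum. The labels give no dose, no time and no empty-vector cells on saracatinib, so an effect of the drug on VAV1 signalling and an effect on any A375 cell cannot be told apart. Whether the 3 libraries of a group were transduced separately is not stated, and p-values below rest on the spread between these cultures, which may be technical.

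MYC binds DNA as a pair with MAX, mostly at E-boxes, and raises transcription of genes for cell growth. MXD and MNT proteins pair with MAX as well and repress from the same sites. Ribosome biogenesis is among the best known outputs of MYC: RNA polymerase I makes the long rRNA precursor in the nucleolus, small nucleolar RNA particles modify it, and the small subunit processome and the large subunit assembly factors cut and fold it into subunits.

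The canonical E-box, CACGTG, reads the same on both strands. RefSeq promoter windows of the GRCh38.p14 assembly, from 250 bases before to 50 bases after a gene's start, were matched for 43 of the 52 genes, and 20 of the 43 (46.5%) held the motif. The same letters were found in 8.77% of all 27305 genes with a window and in 12.6% of the 10483 genes with a window that were tested in the first experiment. By role, 3 of 5 MYC family genes, 0 of 6 RNA polymerase I genes, 15 of 28 nucleolar genes and 2 of 4 initiation genes held it. A match is a description of the sequence and not a binding site. The 9 stretches below are the 100 bases before the start for members that hold the motif there, shown so that the motif can be read in its context beside the changes of these genes given further on. CACGTG is in capitals, and each stretch reads 5′ to 3′ on the strand of the gene.
ODC1: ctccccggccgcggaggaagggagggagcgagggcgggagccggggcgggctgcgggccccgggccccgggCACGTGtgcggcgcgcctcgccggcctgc
EIF4G1: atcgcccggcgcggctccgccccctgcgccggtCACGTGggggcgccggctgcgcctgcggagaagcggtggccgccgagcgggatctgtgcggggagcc
LYAR: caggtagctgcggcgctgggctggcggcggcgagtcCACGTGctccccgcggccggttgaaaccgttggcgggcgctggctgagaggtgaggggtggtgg
EIF4E: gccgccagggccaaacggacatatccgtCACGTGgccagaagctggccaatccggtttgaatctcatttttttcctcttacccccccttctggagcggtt
DDX21: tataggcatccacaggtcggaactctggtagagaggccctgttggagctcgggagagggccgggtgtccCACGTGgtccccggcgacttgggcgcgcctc
NAT10: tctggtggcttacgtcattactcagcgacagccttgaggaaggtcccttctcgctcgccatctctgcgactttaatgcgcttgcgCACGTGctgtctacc
UTP20: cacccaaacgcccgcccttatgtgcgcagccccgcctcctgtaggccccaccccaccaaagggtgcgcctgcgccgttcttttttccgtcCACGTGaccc
NOP10: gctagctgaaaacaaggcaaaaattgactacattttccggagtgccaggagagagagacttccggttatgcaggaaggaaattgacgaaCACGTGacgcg
UTP4: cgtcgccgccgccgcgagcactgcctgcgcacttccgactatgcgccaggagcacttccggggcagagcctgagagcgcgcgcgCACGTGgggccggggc

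The first base of the motif lies at position -29 relative to the start in ODC1 (chr2:10448013-10448112, minus strand), at -67 in EIF4G1 (chr3:184314506-184314605, plus) and at -64 in LYAR (chr4:4290022-4290121, minus). It lies at -72 in EIF4E (chr4:98929134-98929233, minus), at -31 in DDX21 (chr10:68956547-68956646, plus) and at -15 in NAT10 (chr11:34105529-34105628, plus). In UTP20 (chr12:101280005-101280104, plus) it lies at -10, in NOP10 (chr15:34343137-34343236, minus) at -11 and in UTP4 (chr16:69132549-69132648, plus) at -16. The start used here is that of the RefSeq window, which differs from the GENCODE 29 gene start. The stretches of ODC1, EIF4G1, LYAR, EIF4E, DDX21 and UTP4 lie inside the GENCODE 29 gene, and those of NAT10 and NOP10 do in part.

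All values below are on the scale deposited by the authors, log2(normalized count + 1), which understates the fold of genes with few counts. A gene is said to rise or fall where limma's adjusted p, over all genes tested in that comparison, was under 0.05. Levels are compared between groups of 1 experiment only, because the 2 experiments were normalized apart, and never between genes. Such values cannot show a change in the total RNA of a cell, and in a bulk sample a change in every cell cannot be told apart from a change in the share of cells that express a gene. VAV1 stood at 13.86 to 13.94 in VAV1 vehicle libraries and 1.90 to 2.49 in vector vehicle libraries, and RAC1 at 14.89 to 14.95 in RAC1 P29S libraries and 11.87 to 11.90 in untreated vector libraries. The genotype field of the 3 RAC1 P29S libraries reads empty vector, against their titles, and the RAC1 level goes with the titles. Libraries held 14443918 to 16262759 normalized counts, and correlations were 0.980 to 0.985 within a group and 0.956 to 0.972 between groups of the same experiment.

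Among markers of the melanocyte lineage, SOX10, MITF and ERBB3 were present in all groups, while the pigment cell genes MLANA, TYRP1 and DCT were low and TYR was lower still, with TYR and DCT listed in the second experiment alone. The summed normalized count of the 8 to 10 listed lineage markers differed between groups. It was 5610 to 5820 with VAV1 and saracatinib, 4420 to 4550 with VAV1 and vehicle, and 15400 to 15500 in vector vehicle libraries. It was 7400 to 7580 with RAC1 P29S and 16200 to 16800 in untreated vector libraries. The list did not move as one. SOX10, ERBB3 and S100B fell with VAV1 (-2.07 ± 0.04, -2.59 ± 0.05 and -3.14 ± 0.14) and with RAC1 P29S (-1.1 ± 0.05, -1.61 ± 0.06 and -1.98 ± 0.14), while MITF and SOX9 rose with VAV1 (1.57 ± 0.11 and 4.11 ± 0.13) and with RAC1 P29S (1.23 ± 0.11 and 3.96 ± 0.38; log2 changes ± SE, highest adjusted p = 2.45e-05, limma). With saracatinib SOX10, ERBB3 and S100B rose, MITF fell by 1.09 ± 0.11 (adjusted p = 5.88e-06) and SOX9 changed by -0.34 ± 0.13 (adjusted p = 0.0514, limma). The keratins KRT8 and KRT18 moved too: the epithelial list summed to 7960 to 8380 with VAV1 and saracatinib, 12900 to 13900 with VAV1 and vehicle, and 5890 to 6670 in vector vehicle libraries. It summed to 6040 to 6750 with RAC1 P29S and 2920 to 3340 in untreated vector libraries, while EPCAM was not listed. Haematopoietic markers, PTPRC among them, summed to at most 27.7 normalized counts in any library. The part of these movements in the results that follow was not tested.

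In VAV1 cells with vehicle, 37 of the 52 genes rose and 2 fell relative to vector cells, which is 71.2% and 3.85%. Of all 14410 genes tested, 43.7% passed the threshold, 23.6% higher and 20.1% lower, and their median log2 change was 0.02, against 0.26 for the 52. With saracatinib, 3 of the 52 rose and 38 fell relative to VAV1 cells with vehicle, which is 5.77% and 73.1%, while 18.3% of all tested genes rose and 19.1% fell. The medians were -0.34 for the 52 and -0.01 for all tested genes. In RAC1 P29S cells, 23 of the 52 rose and 3 fell relative to untreated vector cells, which is 44.2% and 5.77%, against 15.6% and 15.5% of all 14036 genes tested there. The medians were 0.16 for the 52 and 0.00 for all tested genes. The VAV1 and the saracatinib comparison share the VAV1 vehicle libraries, so a high value in those libraries enters both with opposite sign.

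**Figure D1:**
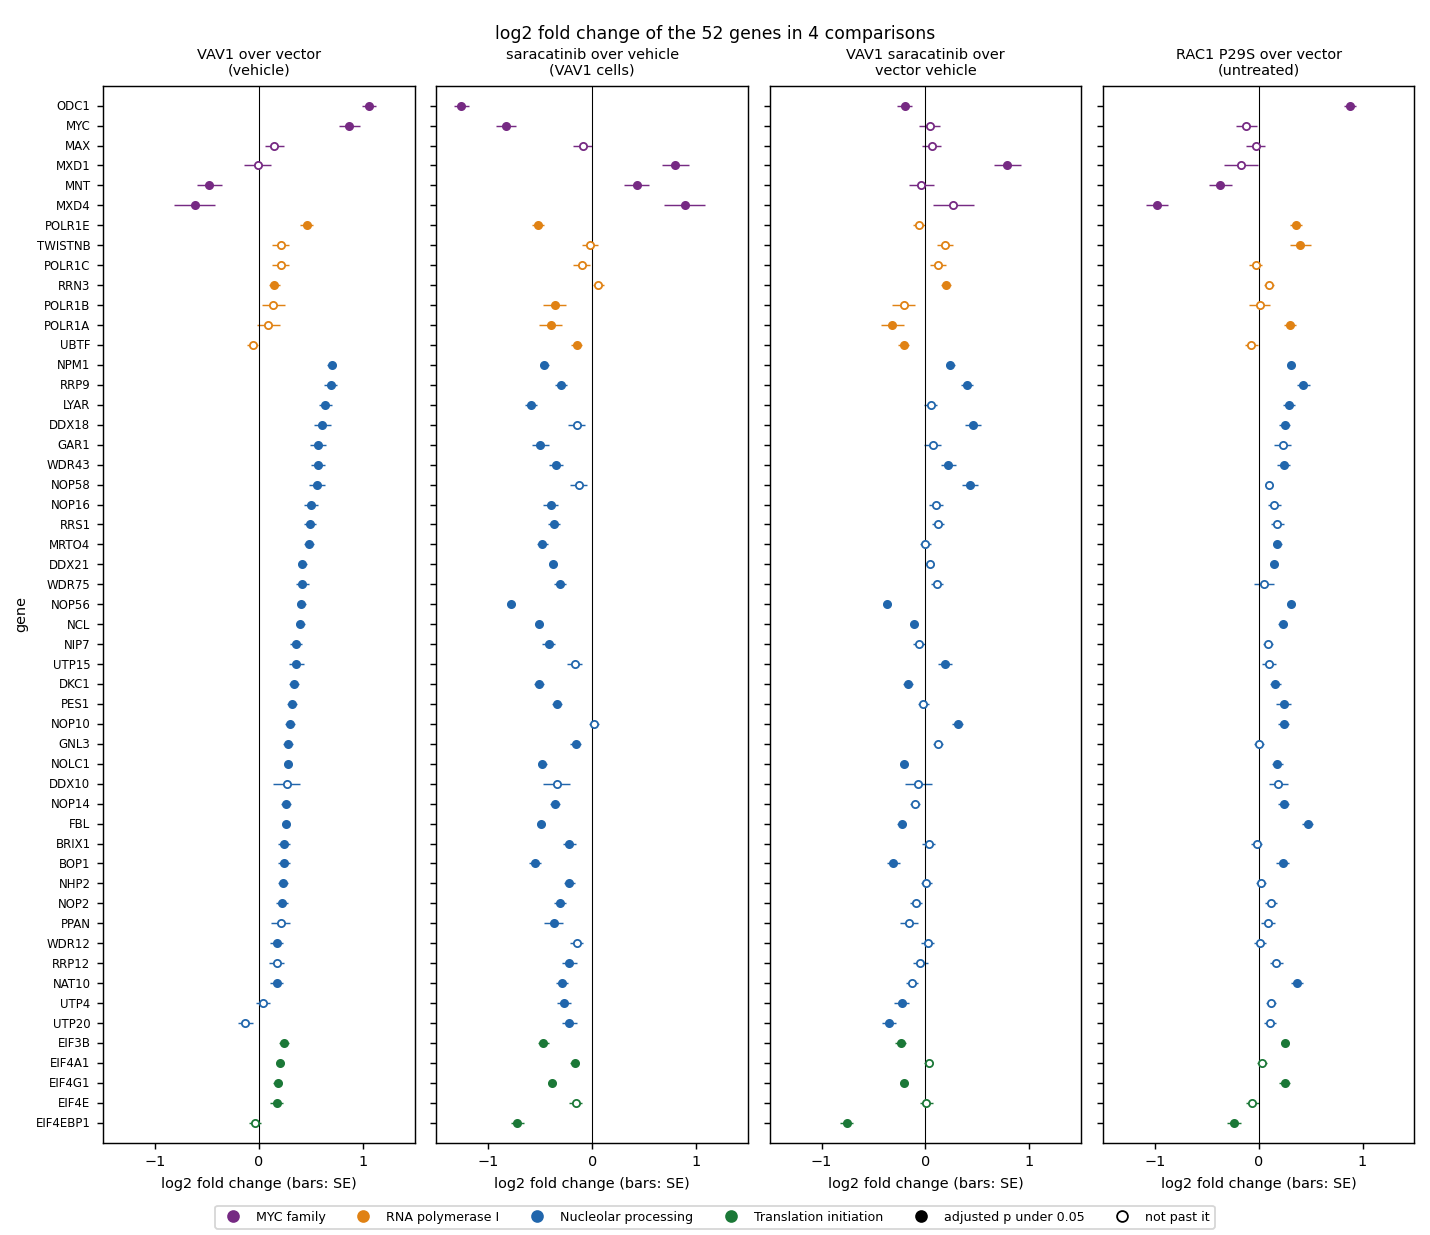
Log2 fold change (x axis) of the 52 genes (rows, ordered within each role by the change with VAV1) in 4 comparisons, with bars for SE and filled points for an adjusted p under 0.05. Nucleolar genes lie mostly to the right of 0 with VAV1 (29 of 34 rose), to the left with saracatinib (28 of 34 fell) and to the right with RAC1 P29S (17 of 34 rose). Of all tested genes, 23.6% rose with VAV1, 19.1% fell with saracatinib and 15.6% rose with RAC1 P29S.

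MYC itself was higher with VAV1 than with the vector and lower with saracatinib than without it, and its change with RAC1 P29S did not pass the threshold. MYC stood at 7.85, 8.08 and 7.98 in VAV1 saracatinib libraries, 8.72, 8.86 and 8.81 in VAV1 vehicle libraries, and 7.95, 8.0 and 7.84 in vector vehicle libraries. Every VAV1 vehicle library lay above all the others of that experiment, and the saracatinib and vector libraries overlapped. The log2 change with VAV1 was 0.87 ± 0.10 (SE), a 1.83-fold level (adjusted p = 8.27e-06, limma). With saracatinib it was -0.83 ± 0.10 relative to VAV1 vehicle (adjusted p = 1.77e-05, limma). Between VAV1 saracatinib and vector vehicle cells the difference was 0.04 ± 0.10 (adjusted p = 0.774, limma). In the second experiment MYC stood at 8.21, 8.06 and 8.21 in RAC1 P29S libraries, against 8.40, 8.28 and 8.16 in vector libraries. These groups overlapped, with a change of -0.12 ± 0.10 (adjusted p = 0.415, limma). The VAV1 effect on MYC exceeded the RAC1 P29S effect by 0.99 ± 0.13 (adjusted p = 8.58e-05, limma, interaction over all 15 libraries).

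ODC1, which encodes ornithine decarboxylase, the first enzyme of polyamine synthesis and a classical MYC target (chr2:10439968-10448504, minus strand, GENCODE 29), rose in both experiments. It stood at 9.40, 9.41 and 9.41 in VAV1 saracatinib libraries, 10.70, 10.63 and 10.67 in VAV1 vehicle libraries, and 9.67, 9.45 and 9.69 in vector vehicle libraries. RAC1 P29S libraries stood at 10.66, 10.60 and 10.68 and untreated vector libraries at 9.69, 9.79 and 9.80. In neither experiment did the groups overlap. The log2 change was 1.06 ± 0.07 with VAV1 (adjusted p = 4.14e-08), -1.26 ± 0.07 with saracatinib (adjusted p = 1.55e-08) and 0.88 ± 0.06 with RAC1 P29S (adjusted p = 2.27e-06, limma). The difference between the VAV1 and RAC1 P29S effects on ODC1 was 0.18 ± 0.09 (adjusted p = 0.197, limma). Relative to vector vehicle cells, ODC1 was lower in VAV1 saracatinib cells by a log2 change of -0.20 ± 0.07 (adjusted p = 0.0357, limma). That last call was lost when any 1 of 6 libraries was left out, vector vehicle 1 or 3, VAV1 vehicle 3 or any saracatinib library (adjusted p = 0.0502 to 0.140).

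The MAX-binding repressors MXD4 and MNT were lower with VAV1 and with RAC1 P29S and higher with saracatinib. MXD4 stood at 8.78, 8.72 and 8.86 in VAV1 saracatinib libraries, 8.51, 7.49 and 7.71 in VAV1 vehicle libraries, and 8.63, 8.39 and 8.54 in vector vehicle libraries. With VAV1 it fell by 0.62 ± 0.20 (adjusted p = 0.0272, limma), although VAV1 vehicle library 1 lay within the vector range. Without that library the change was -0.92 ± 0.11 (adjusted p = 4.26e-05). The call was lost without vector vehicle 1 (adjusted p = 0.0903) or 3 (adjusted p = 0.0719), or without VAV1 vehicle 2 (adjusted p = 0.0945) or 3 (adjusted p = 0.0959, limma). With saracatinib MXD4 rose by 0.89 ± 0.20 relative to VAV1 vehicle (adjusted p = 0.00488, limma). In RAC1 P29S libraries it stood at 7.74, 7.99 and 8.08, against 8.93, 9.0 and 8.81 in untreated vector libraries, with no overlap and a change of -0.98 ± 0.11 (adjusted p = 8.93e-05, limma).

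MNT stood at 8.48, 8.40 and 8.88 in VAV1 saracatinib libraries, 8.09, 8.27 and 8.10 in VAV1 vehicle libraries, and 8.61, 8.68 and 8.60 in vector vehicle libraries. The VAV1 vehicle libraries were the lowest, with changes of -0.48 ± 0.12 with VAV1 (adjusted p = 0.00520) and 0.43 ± 0.12 with saracatinib (adjusted p = 0.0108, limma). MNT also fell with RAC1 P29S, where libraries stood at 8.63, 8.41 and 8.80, against 9.06, 8.93 and 8.96 in untreated vector libraries (-0.37 ± 0.11, adjusted p = 0.0236, limma). This call was lost without untreated vector 1 (adjusted p = 0.0735), RAC1 P29S 1 (adjusted p = 0.0564) or RAC1 P29S 2 (adjusted p = 0.0839). MXD1 passed the threshold in both comparisons that hold the drug. It stood at 8.08, 7.84 and 8.12 in VAV1 saracatinib libraries, 7.12, 7.32 and 7.20 in VAV1 vehicle libraries, and 7.28, 7.06 and 7.34 in vector vehicle libraries. All saracatinib libraries lay above the rest, by 0.80 ± 0.13 relative to VAV1 vehicle (adjusted p = 0.000266) and by 0.79 ± 0.13 relative to vector vehicle (adjusted p = 0.000254, limma). The MXD1 change was -0.01 ± 0.13 with VAV1 and -0.17 ± 0.16 with RAC1 P29S, neither past the threshold. MAX, the common partner, passed the threshold in no comparison, with group changes from -0.09 ± 0.09 with saracatinib to 0.15 ± 0.09 with VAV1. The interaction tests for MXD1, MXD4 and MNT gave 0.15 ± 0.21, 0.35 ± 0.26 and -0.11 ± 0.17, none past the threshold (lowest adjusted p = 0.391, limma).

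**Figure D2:**
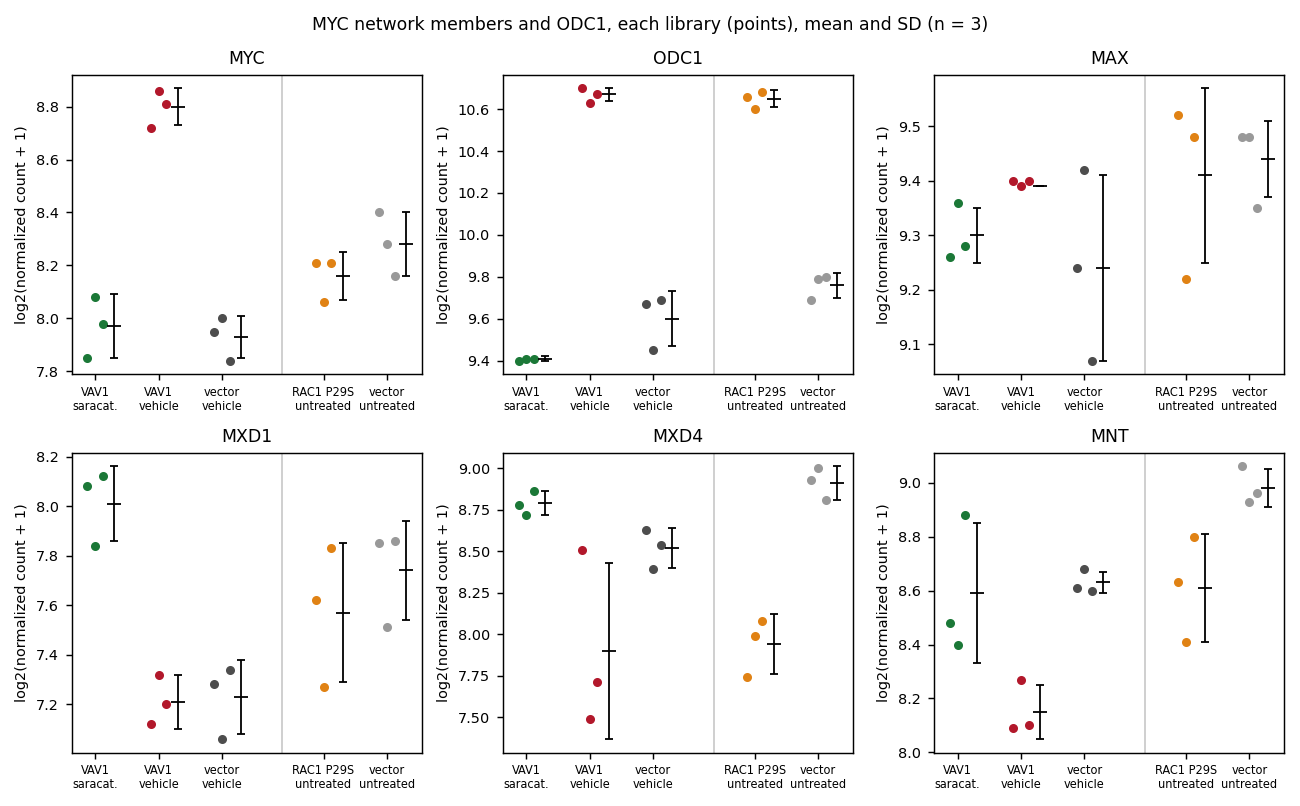
Level in log2(normalized count + 1) (y axis, a range of its own in each panel that does not start at 0) of MYC, ODC1, MAX, MXD1, MXD4 and MNT in each library (points), with group means and SD (n = 3), the grey line parting the 2 experiments. MYC is high in the VAV1 vehicle libraries alone, at 8.72 to 8.86, while ODC1 is high both there and with RAC1 P29S, at 10.60 to 10.70.

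Of the other genes of the network, MYCN, MYCL, MXD3, MXI1, MLX, MLXIP, MLXIPL and MGA, 7 could be tested in the first experiment and 6 in the second. With VAV1, 0 rose and 2 fell (28.6%, against 20.1% of all tested genes), among them MXD3, another MAX-binding repressor, by 0.85 ± 0.15 (adjusted p = 0.000549, limma). With RAC1 P29S, MXD3 (-0.90 ± 0.16, adjusted p = 0.00165) and the repressor MXI1 (-0.93 ± 0.12, adjusted p = 0.000267) fell and 1 gene rose. Of 10 genes that set the stability of the MYC protein, 4 rose and 2 fell with VAV1, against 23.6% and 20.1% of all tested genes. With saracatinib 5 fell and 0 rose, against 19.1% and 18.3%, and with RAC1 P29S 1 rose and 0 fell, against 15.6% and 15.5%. PIM1, a kinase that phosphorylates MYC, rose by 0.64 ± 0.12 with VAV1 (adjusted p = 0.000955) and fell by 1.2 ± 0.12 with saracatinib (adjusted p = 6.10e-06, limma). In VAV1 saracatinib cells PIM1 was lower than in vector vehicle cells (-0.56 ± 0.12, adjusted p = 0.00246, limma). Of the 10 genes, 5 were lower and 0 higher there, against 21.0% and 22.4% of all tested genes. PIM1 was not called with RAC1 P29S (adjusted p = 0.996, limma). USP36, a nucleolar deubiquitinase of MYC, rose by 0.41 ± 0.10 with VAV1 (adjusted p = 0.00506) and was the gene that rose with RAC1 P29S, by 0.37 ± 0.08 (adjusted p = 0.00690, limma).

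Most of the 7 RNA polymerase I genes did not pass the threshold with VAV1. There POLR1E and RRN3 rose and 0 fell (median 0.15), a share of 28.6% near the 23.6% of all tested genes that rose, and the RRN3 call was lost under other scalings. With saracatinib 4 fell and 0 rose (median -0.15), a share of 57.1% against 19.1% of all tested genes, and with RAC1 P29S 3 rose and 0 fell (median 0.10), 42.9% against 15.6%. POLR1E, a subunit that helps the enzyme start and elongate, stood at 9.64, 9.68 and 9.60 in VAV1 saracatinib libraries, 10.18, 10.17 and 10.13 in VAV1 vehicle libraries, and 9.68, 9.69 and 9.72 in vector vehicle libraries. It stood at 10.16, 10.22 and 10.27 in RAC1 P29S libraries, against 9.89, 9.85 and 9.82 in untreated vector libraries. The VAV1 vehicle libraries lay above the rest of their experiment and the RAC1 P29S libraries above their vector libraries. The changes were 0.46 ± 0.06 with VAV1 (adjusted p = 2.51e-05), -0.52 ± 0.06 with saracatinib (adjusted p = 1.14e-05) and 0.36 ± 0.06 with RAC1 P29S (adjusted p = 0.00120, limma).

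The catalytic subunit gene POLR1A stood at 10.24, 10.03 and 10.49 in VAV1 saracatinib libraries, 10.49, 10.76 and 10.71 in VAV1 vehicle libraries, and 10.46, 10.72 and 10.53 in vector vehicle libraries. Its change was 0.09 ± 0.11 with VAV1 (adjusted p = 0.572), and it fell by 0.40 ± 0.11 with saracatinib (adjusted p = 0.0136, limma). The fall was no longer called without VAV1 vehicle 2 (adjusted p = 0.0533) or saracatinib 2 (adjusted p = 0.05 after rounding). In RAC1 P29S libraries POLR1A stood at 10.81, 10.84 and 10.95, against 10.52, 10.62 and 10.58 in untreated vector libraries, a rise of 0.30 ± 0.06 (adjusted p = 0.00357, limma). TWISTNB, a stalk subunit, rose by 0.40 ± 0.10 with RAC1 P29S (adjusted p = 0.0145), a call lost without untreated vector 2 (adjusted p = 0.0519) or RAC1 P29S 3 (adjusted p = 0.0634), and changed by 0.21 ± 0.08 with VAV1 (adjusted p = 0.0548, limma).

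Of the factors that bring the polymerase to the rRNA promoter, RRN3 stood at 10.58, 10.48 and 10.51 in VAV1 saracatinib libraries, 10.46, 10.50 and 10.43 in VAV1 vehicle libraries, and 10.29, 10.31 and 10.35 in vector vehicle libraries. Both VAV1 groups lay above the vector libraries. The change with VAV1 was 0.15 ± 0.05 (adjusted p = 0.0393, limma), lost under each of the 4 other scalings and without any 1 of 7 libraries (adjusted p = 0.0509 to 0.111). These were all libraries of the experiment except saracatinib 1 and 2. Relative to vector vehicle, RRN3 was higher in VAV1 saracatinib cells by 0.20 ± 0.05 (adjusted p = 0.00683, limma). UBTF, which shapes active rRNA gene chromatin, stood at 11.03, 11.02 and 11.10 in VAV1 saracatinib libraries, 11.20, 11.17 and 11.23 in VAV1 vehicle libraries, and 11.25, 11.27 and 11.26 in vector vehicle libraries. It was lowest with saracatinib, with changes of -0.15 ± 0.05 relative to VAV1 vehicle (adjusted p = 0.0202) and -0.21 ± 0.05 relative to vector vehicle (adjusted p = 0.00214, limma). The first of these calls was lost without VAV1 vehicle 3 (adjusted p = 0.0775), saracatinib 1 (adjusted p = 0.0636) or saracatinib 2 (adjusted p = 0.0671). Of 13 further subunits and factors of the enzyme, 3 rose with VAV1, a share of 23.1% that is about that of all tested genes (23.6%). With saracatinib 4 of the 13 fell (30.8%, against 19.1%), and with RAC1 P29S 3 rose and 1 fell (23.1% and 7.69%, against 15.6% and 15.5%). The subunit gene CD3EAP rose by 0.84 ± 0.12 with VAV1 (adjusted p = 9.74e-05) and fell by 0.86 ± 0.12 with saracatinib (adjusted p = 0.000110, limma). TAF1A, of the promoter selectivity factor, rose by 0.69 ± 0.12 with VAV1 (adjusted p = 0.000382) and by 0.49 ± 0.09 with RAC1 P29S (adjusted p = 0.00224, limma).

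The 34 nucleolar genes made up 29 of the 39 members called with VAV1. With VAV1, 29 rose and 0 fell, with a median of 0.33 and a range from -0.13 for UTP20 to 0.70 for NPM1. With saracatinib, 28 fell and 0 rose, with a median of -0.35 and a range from -0.78 for NOP56 to 0.02 for NOP10. With RAC1 P29S, 17 rose and 0 fell, with a median of 0.18 and a range from -0.02 for BRIX1 to 0.47 for FBL. No nucleolar gene passed the threshold against the direction of the rest in these 3 comparisons.

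Genes for scaffold and multifunctional proteins of the nucleolus rose with VAV1 in 6 of 6 cases (100%) and fell with saracatinib in 6 of 6 (100%). They rose with RAC1 P29S in 5 of 6 (83.3%). The shares of all tested genes were 23.6%, 19.1% and 15.6%. NPM1, nucleophosmin, a histone and ribosome chaperone (chr5:171387116-171411137, plus strand, GENCODE 29), stood at 15.14, 15.09 and 15.07 in VAV1 saracatinib libraries, 15.65, 15.48 and 15.54 in VAV1 vehicle libraries, and 14.91, 14.87 and 14.80 in vector vehicle libraries. In RAC1 P29S libraries it stood at 15.56, 15.58 and 15.56, against 15.30, 15.25 and 15.21 in untreated vector libraries. No groups overlapped, and the saracatinib libraries lay between the other groups of their experiment. The change was 0.70 ± 0.04 with VAV1, a 1.62-fold level (adjusted p = 3.05e-08), and -0.46 ± 0.04 with saracatinib (adjusted p = 3.49e-06, limma). With RAC1 P29S it was 0.31 ± 0.03 (adjusted p = 5.08e-05, limma). Since 45 annotated pseudogenes bear the name of NPM1, its reads may be shared among copies, and its value is uncertain to that extent.

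NCL, nucleolin, which binds the rRNA precursor, stood at 13.54, 13.47 and 13.51 in VAV1 saracatinib libraries, 14.04, 13.96 and 14.04 in VAV1 vehicle libraries, and 13.63, 13.65 and 13.57 in vector vehicle libraries. The VAV1 vehicle libraries were the highest, with changes of 0.40 ± 0.04 with VAV1 (adjusted p = 2.11e-06) and -0.51 ± 0.04 with saracatinib (adjusted p = 3.69e-07, limma). NCL rose by 0.23 ± 0.04 with RAC1 P29S (adjusted p = 0.00109, limma). LYAR, a nucleolar zinc finger protein, stood at 9.81, 9.88 and 9.86 in VAV1 saracatinib libraries, 10.52, 10.35 and 10.44 in VAV1 vehicle libraries, and 9.79, 9.83 and 9.77 in vector vehicle libraries. Its VAV1 vehicle libraries lay apart from the rest, while saracatinib and vector libraries overlapped: 0.64 ± 0.06 with VAV1 (adjusted p = 1.75e-06) and -0.59 ± 0.06 with saracatinib (adjusted p = 5.90e-06, limma). NOLC1, a chaperone of small nucleolar particles, averaged 12.01 ± 0.02 (SD, n = 3), with none above 12.04, in VAV1 saracatinib libraries, and stood at 12.49, 12.53 and 12.46 in VAV1 vehicle libraries and 12.26, 12.23 and 12.17 in vector vehicle libraries. Its saracatinib libraries lay below the vector libraries (-0.21 ± 0.04, adjusted p = 0.00117, limma).

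Of the 7 genes for the core proteins of the C/D and H/ACA particles, which carry the small nucleolar RNAs, 7 rose with VAV1 (100%). With saracatinib 5 fell (71.4%), and with RAC1 P29S 4 rose (57.1%). The shares of all tested genes were 23.6%, 19.1% and 15.6%. NOP56, a C/D core protein (chr20:2652145-2658393, plus strand, GENCODE 29), stood at 11.57, 11.44 and 11.46 in VAV1 saracatinib libraries, 12.29, 12.24 and 12.28 in VAV1 vehicle libraries, and 11.89, 11.85 and 11.84 in vector vehicle libraries. The 3 groups did not overlap, and the saracatinib libraries lay below the vector libraries. The changes were 0.41 ± 0.04 with VAV1 (adjusted p = 7.28e-06), -0.78 ± 0.04 with saracatinib (adjusted p = 2.31e-08) and -0.37 ± 0.04 for VAV1 saracatinib relative to vector vehicle (adjusted p = 2.20e-05, limma). NOP58, the C/D core protein that pairs with NOP56, stood at 11.29, 11.18 and 11.27 in VAV1 saracatinib libraries, 11.40, 11.29 and 11.45 in VAV1 vehicle libraries, and 10.65, 11.01 and 10.80 in vector vehicle libraries. Here both VAV1 groups lay above the vector libraries and overlapped each other. The changes were 0.56 ± 0.08 with VAV1 (adjusted p = 7.08e-05) and -0.13 ± 0.08 with saracatinib (adjusted p = 0.212, limma).

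FBL, fibrillarin, the ribose methyltransferase of the C/D particle, stood at 11.49, 11.51 and 11.54 in VAV1 saracatinib libraries, 11.94 to 12.06 in VAV1 vehicle libraries, and 11.72, 11.75 and 11.76 in vector vehicle libraries. In RAC1 P29S libraries it stood at 12.16, 12.09 and 12.19, against 11.71, 11.70 and 11.62 in untreated vector libraries. No groups overlapped, and FBL had the highest RAC1 P29S change of the nucleolar genes: 0.47 ± 0.05 (adjusted p = 4.28e-05), against 0.26 ± 0.04 with VAV1 (adjusted p = 0.000428, limma). NOP10, an H/ACA core protein, stood at 10.97, 10.95 and 10.99 in VAV1 saracatinib libraries, 11.01, 10.87 and 10.98 in VAV1 vehicle libraries, and 10.69, 10.62 and 10.66 in vector vehicle libraries. Both VAV1 groups lay above the vector libraries, with changes of 0.30 ± 0.05 with VAV1 (adjusted p = 0.000412) and 0.02 ± 0.05 with saracatinib (adjusted p = 0.827, limma). Its partners GAR1 (0.57 ± 0.08), DKC1, the pseudouridine synthase (0.34 ± 0.05), and NHP2 (0.23 ± 0.05) rose with VAV1 and fell with saracatinib by 0.50 ± 0.08, 0.51 ± 0.05 and 0.22 ± 0.05.

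Of 10 small subunit processome genes, 6 rose with VAV1 (60.0%), 8 fell with saracatinib (80.0%) and 4 rose with RAC1 P29S (40.0%). The shares of all tested genes were 23.6%, 19.1% and 15.6%. RRP9, which binds the U3 small nucleolar RNA, stood at 10.23, 10.22 and 10.32 in VAV1 saracatinib libraries, 10.55, 10.52 and 10.59 in VAV1 vehicle libraries, and 9.84, 9.88 and 9.85 in vector vehicle libraries. In RAC1 P29S libraries it stood at 11.21, 11.07 and 11.15, against 10.74, 10.78 and 10.61 in untreated vector libraries. No groups overlapped, and the changes were 0.69 ± 0.06 with VAV1 (adjusted p = 3.19e-07), -0.30 ± 0.06 with saracatinib (adjusted p = 0.000928) and 0.43 ± 0.06 with RAC1 P29S (adjusted p = 0.000443, limma). UTP20, UTP4, RRP12 and the helicase DDX10 did not pass the threshold with VAV1, with changes of -0.13 ± 0.07, 0.04 ± 0.07, 0.17 ± 0.07 and 0.27 ± 0.13. NAT10, the rRNA cytidine acetyltransferase, stood at 11.24, 11.19 and 11.36 in RAC1 P29S libraries, against 10.89, 10.87 and 10.89 in untreated vector libraries, with no overlap (0.37 ± 0.06, adjusted p = 0.000586, limma).

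Of 11 large subunit assembly genes, 10 rose with VAV1 (90.9%), 9 fell with saracatinib (81.8%) and 4 rose with RAC1 P29S (36.4%). The shares of all tested genes were 23.6%, 19.1% and 15.6%. PPAN was the gene of the 11 that did not pass with VAV1 (0.21 ± 0.09, adjusted p = 0.0752, limma). Its reads may be shared with the readthrough gene that joins it to P2RY11. The helicase gene DDX18 stood at 11.51, 11.45 and 11.32 in VAV1 saracatinib libraries, 11.45, 11.66 and 11.62 in VAV1 vehicle libraries, and 10.81, 11.08 and 11.01 in vector vehicle libraries. Both VAV1 groups lay above the vector libraries and overlapped each other, with 0.61 ± 0.08 with VAV1 (adjusted p = 3.15e-05) and -0.15 ± 0.08 with saracatinib (adjusted p = 0.144, limma). Within the trimer that processes the large subunit precursor, PES1 rose by 0.32 ± 0.05 with VAV1 (adjusted p = 0.000318), BOP1 by 0.24 ± 0.06 (adjusted p = 0.00536) and WDR12 by 0.17 ± 0.06 (adjusted p = 0.0364, limma). The WDR12 call was lost without VAV1 vehicle 1 (adjusted p = 0.151) or without vector vehicle 1, 2 or 3 (adjusted p = 0.0963, 0.0536 and 0.0739). It was also lost under each of the 4 other scalings (adjusted p = 0.0512 to 0.0769) and under the replicate block (adjusted p = 0.0583, limma). With saracatinib PES1 fell by 0.34 ± 0.05 (adjusted p = 0.000226) and BOP1 by 0.55 ± 0.06 (adjusted p = 1.09e-05), while WDR12 changed by -0.15 ± 0.06 (adjusted p = 0.0745, limma).

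**Figure D3:**
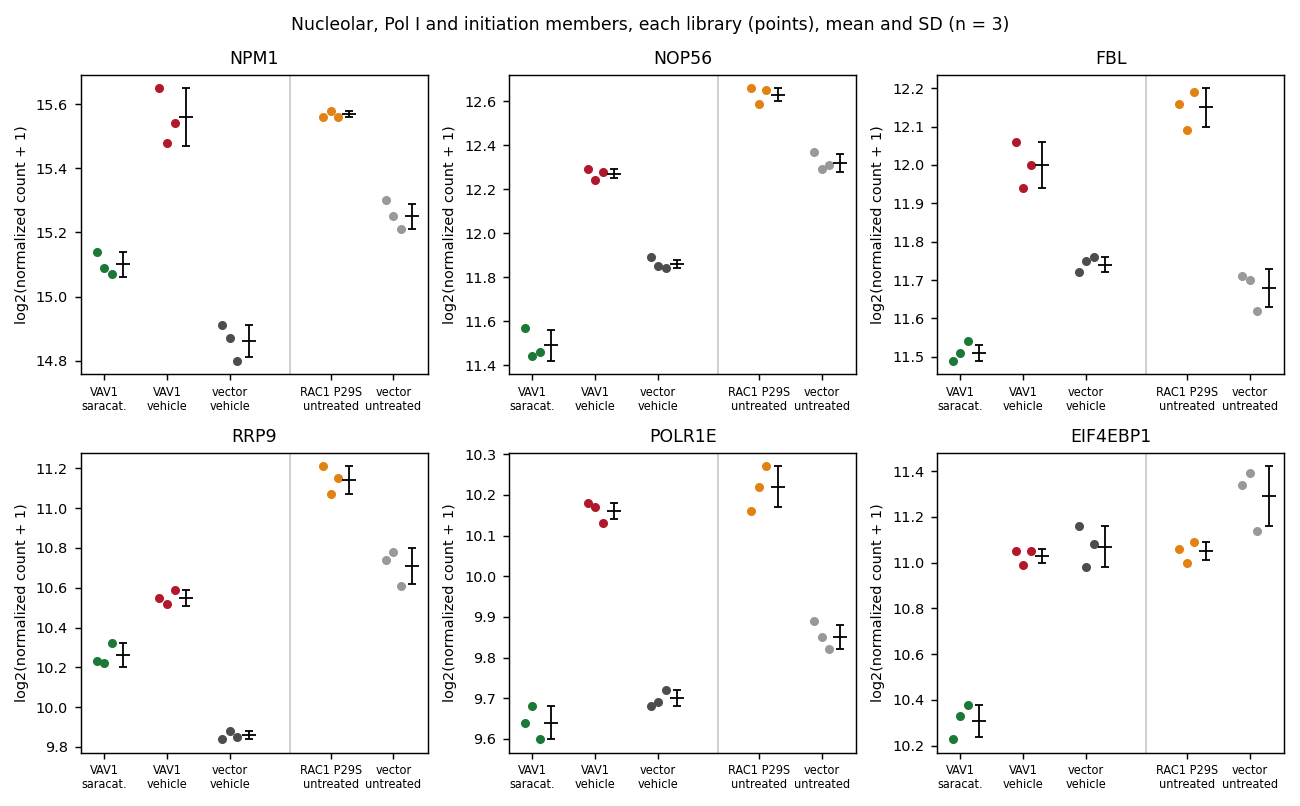
Level in log2(normalized count + 1) (y axis, a range of its own in each panel that does not start at 0) of NPM1, NOP56, FBL, RRP9, POLR1E and EIF4EBP1 in each library (points), with group means and SD (n = 3). With saracatinib NPM1 and RRP9 lie between the VAV1 vehicle and vector vehicle libraries, NOP56 and FBL lie below both, and EIF4EBP1 is low in the saracatinib libraries alone, at 10.23 to 10.38.

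Of the 5 translation initiation genes, only EIF4EBP1 did not rise with VAV1, and only EIF4EBP1 fell with RAC1 P29S. With saracatinib EIF4EBP1 fell like most of the 5, and only EIF4E did not pass the threshold. With VAV1, 4 of 5 rose and 0 fell, against 23.6% and 20.1% of all tested genes. The EIF4E call among these was lost under other scalings. With saracatinib 4 fell and 0 rose, against 19.1% and 18.3%. With RAC1 P29S 2 rose and 1 fell, against 15.6% and 15.5%. EIF4E, which binds the mRNA cap, stood at 10.35, 10.28 and 10.32 in VAV1 saracatinib libraries, 10.53, 10.42 and 10.47 in VAV1 vehicle libraries, and 10.22, 10.40 and 10.29 in vector vehicle libraries. Its rise of 0.17 ± 0.06 with VAV1 (adjusted p = 0.0347, limma) was lost under each of the 4 other scalings (adjusted p = 0.0512 to 0.0701), under the replicate block (adjusted p = 0.0632) and in a fit of the 2 groups alone (adjusted p = 0.0518). It was also lost without vector vehicle 1 or 3 or VAV1 vehicle 1 or 3 (adjusted p = 0.0764 to 0.132). EIF4E changed by -0.16 ± 0.06 with saracatinib (adjusted p = 0.0542) and by -0.06 ± 0.06 with RAC1 P29S (adjusted p = 0.544, limma). EIF3B, a scaffold subunit of the initiation factor that recruits the small subunit, stood at 12.17, 12.15 and 12.10 in VAV1 saracatinib libraries, 12.58, 12.65 and 12.62 in VAV1 vehicle libraries, and 12.32, 12.49 and 12.31 in vector vehicle libraries. Its groups did not overlap, with 0.24 ± 0.05 with VAV1 (adjusted p = 0.00183), -0.47 ± 0.05 with saracatinib (adjusted p = 8.51e-06) and 0.25 ± 0.04 with RAC1 P29S (adjusted p = 0.00117, limma). EIF4G1, the scaffold of the cap-binding complex, stood at 12.70, 12.68 and 12.78 in VAV1 saracatinib libraries, 13.08, 13.12 and 13.12 in VAV1 vehicle libraries, and 12.95, 12.95 and 12.88 in vector vehicle libraries. It too was lowest with saracatinib, with 0.18 ± 0.04 with VAV1 (adjusted p = 0.00267), -0.39 ± 0.04 with saracatinib (adjusted p = 6.74e-06) and 0.25 ± 0.05 with RAC1 P29S (adjusted p = 0.00376, limma).

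EIF4EBP1, which holds the cap-binding protein EIF4E in an inactive state, stood at 10.23, 10.33 and 10.38 in VAV1 saracatinib libraries, 11.05, 10.99 and 11.05 in VAV1 vehicle libraries, and 11.16, 10.98 and 11.08 in vector vehicle libraries. The saracatinib libraries lay below all others and the VAV1 vehicle and vector libraries overlapped. EIF4EBP1 fell by 0.72 ± 0.06 relative to VAV1 vehicle (adjusted p = 7.71e-07) and by 0.76 ± 0.06 relative to vector vehicle (adjusted p = 3.60e-07), while the change with VAV1 was -0.04 ± 0.06 (adjusted p = 0.630, limma). In RAC1 P29S libraries it averaged 11.05 ± 0.04 (SD, n = 3), with none above 11.09, against 11.34, 11.39 and 11.14 in untreated vector libraries, with no overlap (-0.24 ± 0.07, adjusted p = 0.0228, limma). This call was lost without untreated vector 1 (adjusted p = 0.0723) or 2 (adjusted p = 0.0801), or without RAC1 P29S 1 (adjusted p = 0.0609) or 2 (adjusted p = 0.0763). EIF4A1, the cap-complex helicase, rose by 0.20 ± 0.04 with VAV1 (adjusted p = 0.000885) and fell by 0.17 ± 0.04 with saracatinib (adjusted p = 0.00318, limma). With 13 annotated pseudogenes and a readthrough gene from SENP3, its value is uncertain.

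VAV1 cells with saracatinib were also set against vector cells with vehicle, which differ in both the transgene and the drug. There 9 of the 52 genes rose and 14 fell, which is 17.3% and 26.9%, against 22.4% and 21.0% of all tested genes. Their median was 0.01, and that of all tested genes was 0.00. The higher genes were MXD1, RRN3 and 7 nucleolar genes, with NPM1 at 0.24 ± 0.04 (adjusted p = 0.000635), RRP9 at 0.40 ± 0.06 (adjusted p = 7.32e-05), NOP58 at 0.43 ± 0.08 (adjusted p = 0.000623) and DDX18 at 0.46 ± 0.08 (adjusted p = 0.000361, limma). NOP10 was higher by 0.31 ± 0.05 (adjusted p = 0.000289, limma). The remaining pair were small subunit processome genes: WDR43 at 0.22 ± 0.07 (adjusted p = 0.0148), lost without saracatinib 1 (adjusted p = 0.0558), and UTP15 at 0.19 ± 0.07 (adjusted p = 0.0448), lost without any 1 of 7 libraries (adjusted p = 0.0546 to 0.170, limma), which were all but vector vehicle 2 and VAV1 vehicle 1. The lower genes included NOP56, FBL, BOP1, UTP20, EIF4EBP1, EIF3B and EIF4G1, with changes of -0.37 ± 0.04, -0.23 ± 0.04, -0.31 ± 0.06, -0.35 ± 0.07, -0.76 ± 0.06, -0.24 ± 0.05 and -0.21 ± 0.04. Of the 34 nucleolar genes, 7 were higher (20.6%), 8 lower (23.5%) and 19 not past the threshold. These shares are near the 22.4% and 21.0% of all tested genes.

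Other genes of the same pathways, in lists that hold no member of the 52, were counted the same way. For reference, 23.6% of all tested genes rose and 20.1% fell with VAV1, and 18.3% rose and 19.1% fell with saracatinib. With RAC1 P29S, 15.6% rose and 15.5% fell. Of 40 further small subunit processome genes, 32 rose (80.0%) and 0 fell with VAV1, and 26 fell (65.0%) and 0 rose with saracatinib. With RAC1 P29S 16 rose (40.0%) and 1 fell (2.50%). FCF1, a nuclease-fold protein of the processome, rose by 0.56 ± 0.07 with VAV1 (adjusted p = 1.59e-05) and fell by 0.49 ± 0.07 with saracatinib (adjusted p = 7.30e-05, limma). Of 45 further large subunit assembly genes tested, 31 rose (68.9%) and 0 fell with VAV1, and 27 fell (60.0%) and 0 rose with saracatinib. With RAC1 P29S 17 rose (37.8%) and 1 fell (2.22%). EBNA1BP2, an early large subunit factor, rose by 0.74 ± 0.05 with VAV1 (adjusted p = 5.50e-08), fell by 0.73 ± 0.05 with saracatinib (adjusted p = 1.19e-07) and rose by 0.43 ± 0.05 with RAC1 P29S (adjusted p = 6.23e-05, limma). Of 10 assembly factors of the small nucleolar particles, 5 rose with VAV1, 6 fell with saracatinib and 5 rose with RAC1 P29S. RUVBL1, an ATPase of that machinery, gave 0.48 ± 0.04, -0.52 ± 0.04 and 0.34 ± 0.05 in these comparisons (highest adjusted p = 0.000419, limma).

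Of 21 genes for RNA polymerase III and its factors, 9 rose (42.9%) and 1 fell (4.76%) with VAV1, and 12 fell (57.1%) with saracatinib. With RAC1 P29S 4 rose (19.0%), a share near the 15.6% of all tested genes. GTF3A, which starts transcription of the small ribosomal RNA gene outside the nucleolar precursor, rose by 0.51 ± 0.05 with VAV1 (adjusted p = 3.13e-06) and by 0.51 ± 0.05 with RAC1 P29S (adjusted p = 3.67e-05, limma). Of 35 further initiation genes, 20 rose (57.1%) and 3 fell (8.57%) with VAV1. With saracatinib 1 rose (2.86%) and 19 fell (54.3%), and with RAC1 P29S 18 rose (51.4%) and 2 fell (5.71%). EIF1AX, a start codon scanning factor, rose by 0.79 ± 0.05 with VAV1 (adjusted p = 7.88e-08), and PDCD4, an inhibitor of the helicase EIF4A1, fell by 0.76 ± 0.07 with RAC1 P29S (adjusted p = 2.15e-05, limma).

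Known MYC targets outside the ribosome were counted too. Of 24 tested, 19 rose (79.2%) and 0 fell with VAV1, and 21 fell (87.5%) and 0 rose with saracatinib. With RAC1 P29S 13 rose (54.2%) and 1 fell (4.17%). The transferrin receptor gene TFRC rose by 0.73 ± 0.04 with VAV1 (adjusted p = 6.21e-09) and by 0.54 ± 0.06 with RAC1 P29S (adjusted p = 0.000106, limma). It was not among the 21 that fell: its change with saracatinib was 0.08 ± 0.04 (adjusted p = 0.128), and relative to vector vehicle it was higher in VAV1 saracatinib cells by 0.81 ± 0.04 (adjusted p = 3.25e-09, limma). CAD, of pyrimidine synthesis, fell by 0.81 ± 0.11 with saracatinib (adjusted p = 0.000145), as did SHMT2, of serine and folate metabolism, by 0.80 ± 0.04 (adjusted p = 5.05e-09, limma). With VAV1 SHMT2 rose by 0.31 ± 0.04, and CAD was not called (0.18 ± 0.11, adjusted p = 0.216, limma). Relative to vector vehicle, CAD (-0.64 ± 0.11) and SHMT2 (-0.49 ± 0.04) were lower in VAV1 saracatinib cells. Of the 24, 5 were higher there (20.8%) and 7 lower (29.2%), against 22.4% and 21.0% of all tested genes. The 85 cytosolic ribosomal protein genes gave other counts. With VAV1, 23 rose and 3 fell (median 0.06), which is 27.1% and 3.53%, against 23.6% and 20.1% of all tested genes. With saracatinib, 34 rose and 1 fell (median 0.10), 40.0% and 1.18% against 18.3% and 19.1%. With RAC1 P29S, 20 rose and 10 fell (median 0.03), 23.5% and 11.8% against 15.6% and 15.5%. Relative to vector vehicle cells, 53 of the 85 (62.4%) were higher in VAV1 saracatinib cells and 0 were lower (median 0.20). Of all tested genes, 22.4% were higher and 21.0% lower there.

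**Figure D4:**
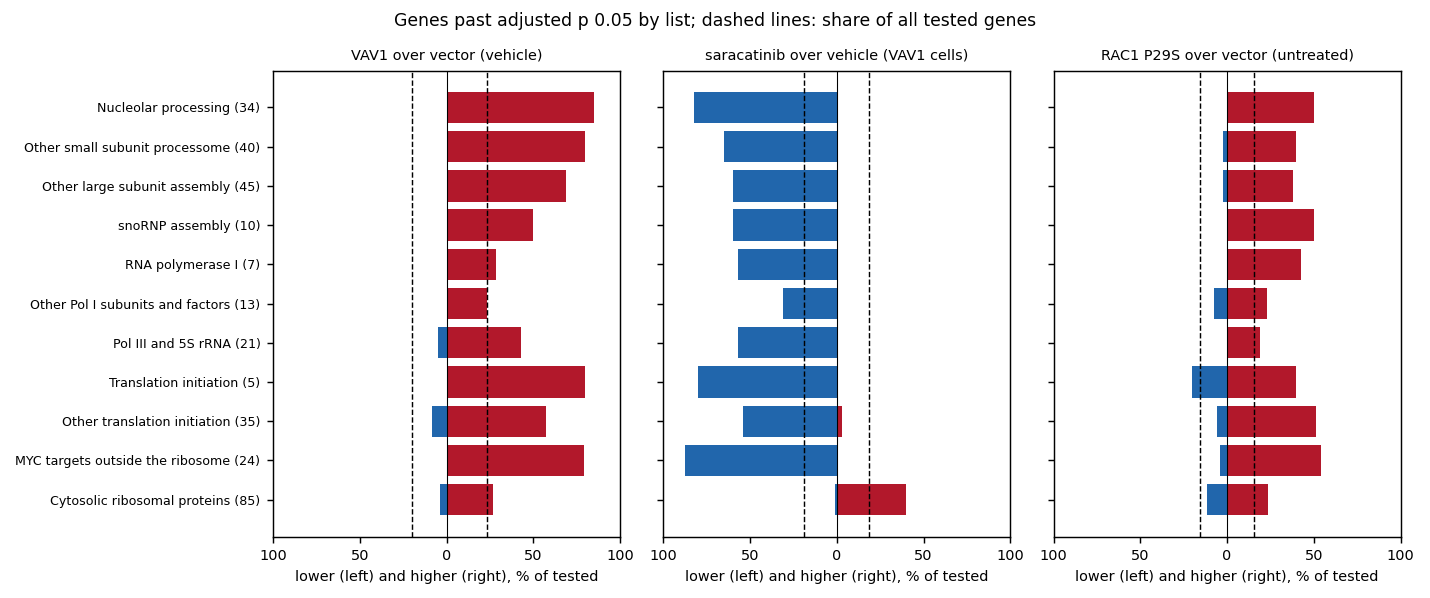
Percent of the tested genes of each list (rows, number tested in brackets) past an adjusted p of 0.05, lower to the left and higher to the right of 0, in 3 comparisons, with dashed lines at the shares of all tested genes. Assembly factor lists extend right with VAV1 and left with saracatinib, and the ribosomal protein list extends right with saracatinib (34 of 85 rose).

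With and without the CACGTG motif in a promoter window, the counts were as follows. They stand beside the shares of all tested genes, which were not split by the motif. Those shares were 23.6% higher and 20.1% lower with VAV1, and 18.3% and 19.1% with saracatinib. With RAC1 P29S they were 15.6% and 15.5%. With VAV1, 16 of the 20 genes that hold it rose and 2 fell (median 0.27), and 14 of the 23 without it rose and 0 fell (median 0.23). With saracatinib, 2 of the 20 rose and 16 fell (median -0.33), and 1 of the 23 rose and 15 fell (median -0.31). With RAC1 P29S, 12 of the 20 rose and 2 fell (median 0.23), and 7 of the 23 rose and 0 fell (median 0.09). The 2 genes with the motif that fell in both experiments were MXD4 and MNT. Of the 9 genes whose promoter stretches are printed above, ODC1, EIF4G1, LYAR, DDX21 and NAT10 rose in both experiments and fell with saracatinib. NOP10 rose in both and did not pass the threshold with saracatinib, EIF4E rose with VAV1 and passed in neither of the others, and UTP4 and UTP20 rose in neither. UTP4 was called higher with RAC1 P29S under upper-quartile scaling (adjusted p = 0.0419) and quantile normalization (adjusted p = 0.0497), against adjusted p = 0.0800 as reported. DDX21 gave 0.42 ± 0.04 with VAV1, -0.38 ± 0.04 with saracatinib and 0.15 ± 0.04 with RAC1 P29S, the last lost without untreated vector 2 (adjusted p = 0.0507, limma). NAT10 gave 0.17 ± 0.06 with VAV1, lost under upper-quartile and total-count scaling (adjusted p = 0.0601 and 0.0647), under the replicate block (adjusted p = 0.0505) and without vector vehicle 1 or 3 or any VAV1 vehicle library (adjusted p = 0.0557 to 0.136, limma).

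The effects of VAV1 and RAC1 P29S, which were measured against different vector libraries, overlapped in which genes rose. VAV1 and its vector cells were given vehicle, while RAC1 P29S and its vector cells were untreated in a separate experiment. A difference between the transgenes can therefore not be told apart from a difference between the experiments. Of the 37 members that rose with VAV1 and the 23 that rose with RAC1 P29S, 21 rose in both, 56.8% of those with VAV1 and 91.3% of those with RAC1 P29S. Over all genes tested in both experiments, 1505 rose in both, 46.0% of the 3271 with VAV1 and 69.1% of the 2179 with RAC1 P29S. The members that rose with RAC1 P29S but were not called with VAV1 were POLR1A and TWISTNB. The interaction test found a difference between the effects for 17 of the 52 genes, higher with VAV1 for 16 and lower for 1, which is 30.8% and 1.92%, against 8.14% and 7.70% of the 13810 genes tested. Higher calls made up 51.4% of all interaction calls and 40.3% under upper-quartile scaling, which moved the member counts to 12 and 3. The 16 were MYC and 15 nucleolar genes, among them NPM1 (difference 0.39 ± 0.06, adjusted p = 0.000245), NOP58 (0.46 ± 0.10, adjusted p = 0.00391) and LYAR (0.36 ± 0.08, adjusted p = 0.00538, limma). GNL3, nucleostemin, differed by 0.28 ± 0.06 (adjusted p = 0.00639, limma), with a change of 0.28 ± 0.05 with VAV1 and 0.00 ± 0.05 with RAC1 P29S.

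The exception was FBL, whose change was smaller with VAV1 than with RAC1 P29S (difference -0.22 ± 0.06, adjusted p = 0.0251, limma). The FBL call was lost without any 1 of 6 libraries, vector vehicle 3, VAV1 vehicle 2 or 3, untreated vector 3, or RAC1 P29S 1 or 3 (adjusted p = 0.0515 to 0.0666), and under the replicate block (adjusted p = 0.0665). No gene of RNA polymerase I or translation initiation passed the interaction test. With 15.8% of all tested genes called there, 7 and 5 genes are too few to read this as a trait of these roles. Of the 34 nucleolar genes, 30 had the larger change with VAV1, called or not, and 15 of the 34 were called higher and 1 lower. Their median difference was 0.2, against 0.01 for all tested genes. Without VAV1 vehicle 3, the interaction was called for 9 of the 52 genes.

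**Figure D5:**
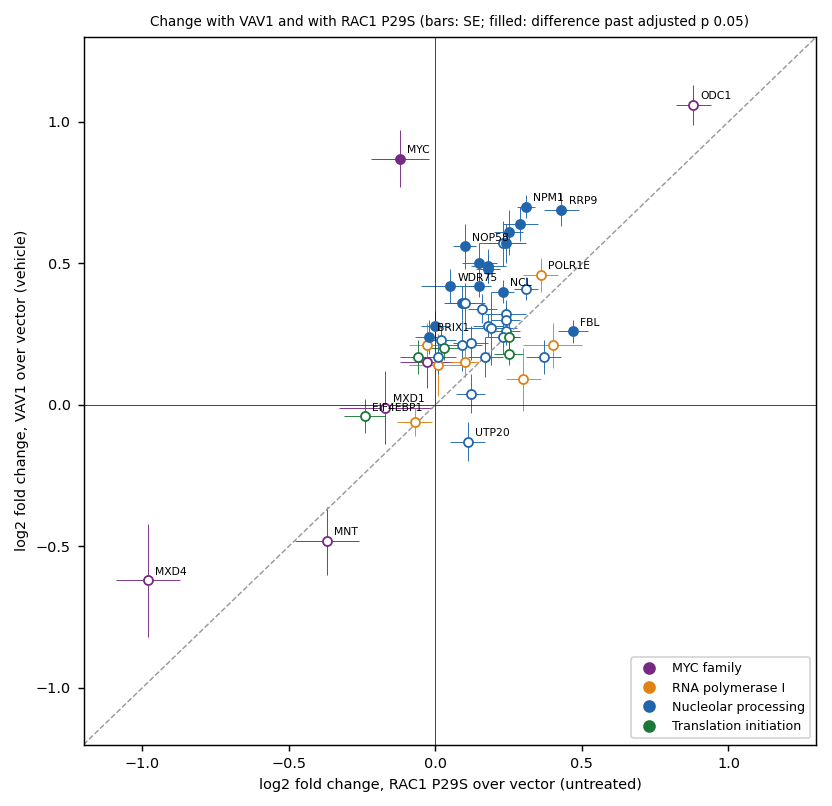
Log2 fold change of the 52 genes with RAC1 P29S (x axis) and with VAV1 (y axis), each over its own vector libraries, with bars for SE, a dashed line of equal change, and filled points where the interaction test had an adjusted p under 0.05. MYC lies far above the line, at 0.87 with VAV1 and -0.12 with RAC1 P29S, most nucleolar genes lie above it by less, and ODC1 is high on both axes.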

How the data were processed

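Total RNA of 15 A375 libraries was sequenced with an Illumina TruSeq preparation, per the labels' protocols. For every library the authors deposited a table of gene symbols and log2 values, each the log2 of a normalized count to which 1 was added. Per the submitters' processing notes, kallisto and DESeq2 were used with GRCh38; their versions, settings and annotation are not given in the sources used here. Whole reads were not recovered: 47.1% to 53.6% of low values lay within 0.1 of a whole multiple at the best step, so neither a count test nor counting intervals could be had.

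Libraries were grouped by title. limma 3.58.1 in R 4.3.3 fitted 1 mean per group with a mean-variance trend and robust empirical Bayes, two-sided, over genes that reached 10 normalized counts in 3 or more libraries. The first experiment (9 libraries) and the second (6 libraries) were fitted apart, and the interaction used all 15 libraries. It compares differences within each experiment. Adjusted p is Benjamini-Hochberg over all tested genes, with a threshold of 0.05. Values after ± are SE for fold changes. Same-numbered libraries showed no shared variation (residual correlations from -0.0547 to 0.0125 over 12 pairs), and no pairing by number was fitted in the reported results. With 3 libraries per group these correlations cannot exclude that same-numbered libraries were handled together.

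All MYC family genes were named. For the other roles these were the 3 members with the smallest adjusted p in each of the VAV1, saracatinib and RAC1 P29S comparisons, and any member called against the direction of its role. Up to 2 genes were named per further list. Other members are given for their role. The members and lists were chosen with earlier results of these data known. Gene positions are from GENCODE 29 and promoter windows from RefSeq GRCh38.p14. Alternatives were 4 scalings, 2 filters, pseudocounts of 4 and 16, another variance model, a test against a 1.2-fold change, other sets of libraries, a replicate block and leaving out each library. The procedure was tested on simulated data.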

Additional observations from a re-analysis of the deposited data

Results flagged for a closer look

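For 17 of the 52 genes the effect of VAV1 differed from that of RAC1 P29S by an interaction test over all 15 libraries (limma, adjusted p under 0.05), with differences given here as VAV1 effect minus RAC1 P29S effect on the log2 scale. A difference between the transgenes cannot be told apart here from one between the experiments, with vehicle and untreated. MYC stood out at 0.99. Scaffold and multifunctional nucleolar proteins differed by 0.39 for NPM1, 0.36 for LYAR, 0.28 for GNL3, 0.27 for DDX21 and 0.17 for NCL. Of the C/D core proteins, NOP58 differed by 0.46 and FBL by -0.22. Of the small subunit processome, WDR75 differed by 0.37, WDR43 by 0.34 and RRP9 by 0.26. Of the large subunit assembly factors, NOP16 and DDX18 differed by 0.35 each, RRS1 by 0.31, MRTO4 by 0.30, and BRIX1 and NIP7 by 0.27 each.

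MYC, NPM1, NOP16, NOP58, RRS1, GNL3, DDX21, MRTO4 and LYAR kept the call when any 1 library was left out. The other 8 lost it without 1 or another library. The call was lost for WDR43 without VAV1 vehicle 3 (adjusted p = 0.0558) or RAC1 P29S 1 (adjusted p = 0.0537). It was lost without any 1 of 5 libraries for DDX18 (adjusted p = 0.0539 to 0.0592) and NIP7 (0.0501 to 0.0752), and of 6 for FBL (0.0515 to 0.0666). It was lost without any 1 of 7 libraries for NCL (adjusted p = 0.0538 to 0.0924), of 8 for RRP9 (0.0566 to 0.0870) and BRIX1 (0.0600 to 0.0961), and of 9 for WDR75 (0.0503 to 0.103, limma).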

How the results depend on the processing

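No member changed direction among its called values under any alternative run. A test against a 1.2-fold change, a stricter question, called 16 of the 52 genes with VAV1, 17 with saracatinib, 2 for VAV1 saracatinib against vector vehicle, 3 with RAC1 P29S and 1 in the interaction. Over all tested genes it called 2618, 1744, 2438, 1639 and 379, and higher calls made up 59.5% with saracatinib and 34% in the interaction. Without the variance trend and robust estimation, 16 members were called with RAC1 P29S and 9 in the interaction. Calls over all tested genes under that setting are not given here, so a loss particular to the members cannot be read from it. Leaving out each library gave 34 to 40 members with VAV1, 35 to 43 with saracatinib, 17 to 24 for VAV1 saracatinib against vector vehicle, 20 to 25 with RAC1 P29S and 9 to 19 in the interaction, with 9 without VAV1 vehicle 3. Over all tested genes these ranges were 5382 to 6249, 4552 to 5460, 5321 to 6224, 3309 to 4105 and 1695 to 2168. Upper-quartile scaling moved the share of higher calls in the interaction to 40.3%, against 51.4% in the reported fit. The cause of these shifts was not tested. With the replicate block, 36, 41, 21, 26 and 12 members were called in the 5 comparisons, in the order above. Over all tested genes the block gave 5951, 5061, 5940, 3888 and 1746 calls, against 6292, 5381, 6248, 4369 and 2188 in the reported fits. The pairing by number is not given by the design, and calls lost with the block say nothing of a weaker effect. Depth per library cannot be had from these values, so counting error could not be separated from the spread between libraries.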

Other observations

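Outside the 52 genes, other ribosome genes also differed between the VAV1 and RAC1 P29S effects, given here as VAV1 effect minus RAC1 P29S effect on the log2 scale. Here too the transgenes cannot be told apart from the experiments. RSL24D1, a placeholder protein of the large subunit, differed by 0.76 ± 0.09 (adjusted p = 2.04e-05), and DCAF13 and KRR1, both of the small subunit processome, by 0.63 ± 0.09 (adjusted p = 9.31e-05) and 0.46 ± 0.09 (adjusted p = 0.00205, limma). Of the MYC targets outside the ribosome, the mitochondrial co-chaperonin gene HSPE1 differed by 0.73 ± 0.10 (adjusted p = 9.80e-05) and the mitochondrial transcription factor gene TFB2M by 0.61 ± 0.09 (adjusted p = 0.000279, limma). Of the initiation genes, PDCD4 differed by 0.69 ± 0.11 (adjusted p = 0.000481) and EIF1AX by 0.55 ± 0.07 (adjusted p = 8.26e-05, limma). By list, 14 of 45 further large subunit genes were higher (31.1%) and 0 lower in this test. Of 40 further small subunit genes, 7 were higher (17.5%) and 1 lower (2.50%). The shares of all tested genes were 8.14% higher and 7.70% lower. The repressor MXI1 differed by 0.80 ± 0.15 (adjusted p = 0.00134, limma). Some of these differences hold a fall with RAC1 P29S. RSL24D1 (-0.22 ± 0.05, adjusted p = 0.0094) and HSPE1 (-0.19 ± 0.06, adjusted p = 0.0263, limma) fell there and rose with VAV1. PDCD4 (-0.76 ± 0.07) and MXI1 (-0.93 ± 0.12) fell there too, with changes of -0.07 ± 0.08 and -0.13 ± 0.09 with VAV1, not past the threshold. EIF1AX rose with both, while DCAF13, KRR1 and TFB2M rose with VAV1 and were not called with RAC1 P29S.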
